A study of Mus musculus with 5 samples.

Results

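The regulators of G protein signalling (RGS) described here are 9 genes, Rgs1, Rgs2, Rgs3, Rgs10, Rgs12, Rgs14, Rgs16, Rgs18 and Rgs19. They were chosen by name, and their values were read from every array probe set annotated to exactly 1 of these symbols, which gave 21 of the 34945 probe sets with 1 symbol and 9 of 18193 genes. The level of each was compared between 2 arrays of brain dendritic cells (DCs) and 3 arrays of bone marrow monocytes from C57BL/6 mice. The brain DCs were lineage-negative, CD45-high and CD11c-positive cells, sorted from the brains of mice harvested 12 days after a subcutaneous injection of B16-Flt3L tumour cells. B16 cells are murine melanoma cells, here carrying Flt3L, the growth factor that expands dendritic cells. The monocytes were sorted from bone marrow as CD11b-high, CD115-positive cells of low side scatter, and their labels give no treatment. All samples are labelled female and 6 to 8 weeks old. Microglia and dendritic cells of the spleen, also named by the series, were not analysed here.

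RGS proteins switch off signalling by G protein-coupled receptors. A receptor loads the G alpha subunit with GTP, and the RGS domain speeds up the hydrolysis of that GTP, so that the G alpha subunit re-binds the G beta-gamma pair and the signal ends. In leukocytes this shortens the response to chemokines, most of which act through receptors coupled to Gi proteins. The family is divided by sequence into the small R4 proteins (here Rgs1, Rgs2, Rgs3, Rgs16 and Rgs18), the R12 proteins (Rgs10, Rgs12 and Rgs14), the RZ proteins (here Rgs19) and the R7 proteins, which are best known from neurons and have no gene among the 9.

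Each value is on a log2 scale on which 0 is a baseline particular to that probe set. Such values give differences between arrays, and no level that could be set against another gene or called absent. Every difference below is a log2 difference, brain DC minus monocyte, with its limma standard error (SE), over 2 arrays of brain DCs and 3 of monocytes. A gene was called when the limma p-value, adjusted by the Benjamini-Hochberg method over all 18193 genes, was under 0.05. No label states that samples are from different animals. The p-values therefore measure the spread between these samples only, which may be technical. With 2 arrays on one side and 3 on the other, the smallest p of an exact permutation test is 0.1. In RNA from a sorted population, a difference in the share of cells that express a gene and a difference in RNA per cell cannot be told apart.

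Marker lists were read for the labelled cell types. They were chosen with earlier results of these data known, so they describe the samples and are no independent check of the labels. All 9 dendritic cell markers were higher in brain DCs, with a median difference of 4.0, and all 6 measured monocyte markers were lower, with a median of -3.82. Markers of other cells differed too. Of 9 measured microglia markers, 8 were higher in brain DCs and 1, Cx3cr1, was lower. Natural killer cell markers were higher for 3 of 6, T cell markers for 2 of 7 (1 of 7 each time an array was left out and with the replicate block) and choroid plexus and glia markers for 1 of 7 (Ttr, at 7.22). Of 9 neutrophil markers, 1 was higher and 4 were lower, and of 7 neuron markers 0 were called by limma (0 also at an unadjusted p under 0.05). Centred values cannot show whether a marker is absent. The 15 immediate early genes, which respond within minutes to stimulation and to tissue handling, included 13 higher and 0 lower by limma (1 lower at an unadjusted p under 0.05). The 24 probe sets of poly-A spike-in RNA, which is added during labelling, were all higher in brain DCs, by a median of 2.59. Xist, which is transcribed from the inactive X chromosome, was 5.62 higher in brain DCs, at -0.30 and -0.52 on the brain DC arrays, against -5.86, -6.02 and -6.21 on the monocyte arrays, although both groups are labelled female. Of the Y-linked genes, Eif2s3y (-0.62), Kdm5d (-1.09) and Uty (-0.91) were lower in brain DCs. The probe sets of Kdm5d disagreed in direction (from -3.29 to 0.30), while those of Uty (-1.68 to -0.37) and Eif2s3y (-0.89 to -0.35) were all negative. Those of Xist were all positive but differed in size (2.48 to 8.49). Cell type, tissue, treatment, the spike-in level and these sex-linked transcripts all coincide with the group difference, and their effects cannot be told apart.

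Of the 9 RGS genes, 3 were higher in brain DCs than in monocytes, 0 were lower and 6 were not called. The 3 were Rgs1, by a very large amount, Rgs10 and, narrowly, Rgs2. Over all 18193 genes, 33.8% were called, 16.9% higher and 16.9% lower, which is the rate against which 3 of 9 is to be read. At an unadjusted p under 0.05, 4 of the 9 were higher, Rgs16 being the fourth, and 0 were lower. The median difference of the 9 genes was 0.31, against 0.09 over all genes. The groups did not overlap for 6 of the 9 genes, 5 higher in brain DCs and 1 lower, against 60.2% of all genes, 35.1% higher and 25.0% lower. Read singly, 4 of the 21 probe sets were higher, 0 were lower (0 also at an unadjusted p under 0.05) and 17 were not called, against 30.2% of all probe sets called, 13.5% higher and 16.8% lower. The groups did not overlap for 9 of the 21 in the higher direction and 2 in the lower, against 57.0% of all probe sets, 31.2% higher and 25.9% lower.

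**Figure D1:**
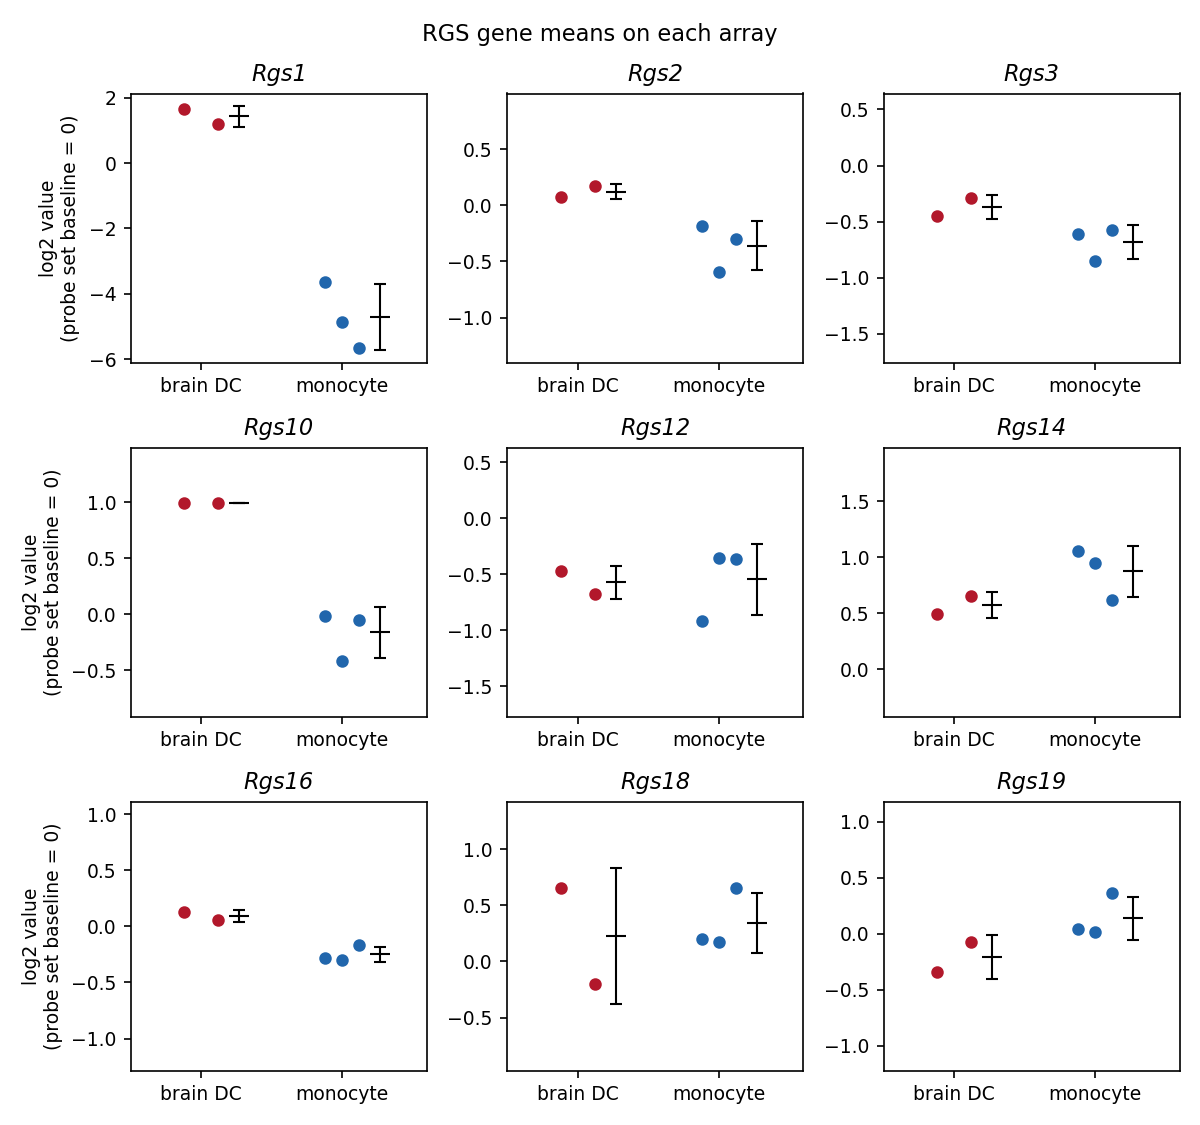
Log2 value of each RGS gene, as the mean of its probe sets relative to their baselines, on the 2 brain DC arrays (left, red) and the 3 monocyte arrays (right, blue), with the group mean and SD as black bars. Rgs1 spans a far wider axis than the other genes, the brain DC points of Rgs1, Rgs2, Rgs3, Rgs10 and Rgs16 lie above all monocyte points, those of Rgs19 lie below them, and those of Rgs12, Rgs14 and Rgs18 overlap them.

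Rgs1, an R4 protein known for damping chemokine receptor signals in activated lymphocytes, stood far from the other 8 genes. Its single probe set, 1417601_at, read 1.66 and 1.21 on the brain DC arrays, against -3.64, -4.88 and -5.65 on the monocyte arrays. The groups were thus well separated, while the monocyte arrays themselves spread over 2.01 and the brain DC arrays over 0.46. The difference was 6.16 ± 0.51 SE (limma adjusted p = 1.39e-04), a 71.3-fold higher level in brain DCs with a 95% interval from 4.97 to 7.34 on the log2 scale. It was the 10th largest increase among all genes. Monocyte replicate 3 was the lowest array and monocyte replicate 1 the highest of its group. Rgs1 remained called each time 1 array was left out. The call rests on 1 probe set, so no second reading of the transcript was at hand. Rgs1 is induced in many leukocytes on activation, and the immediate early list moved with it: the list's median was 0.81 and 1.09 on the brain DC arrays, against -1.47, -1.83 and -2.10 on the monocyte arrays. Within that list Egr1 (5.39 ± 0.23 SE), Fosb (5.06 ± 0.29 SE), Egr3 (4.12 ± 0.12 SE) and Egr2 (3.99 ± 0.20 SE) had the largest increases. The 2 probe sets of Egr3 disagreed in size, at 0.86 and 7.38, which the SE of the gene mean does not show. Fos was at -0.38 and not called. B cells also express Rgs1, and the brain DCs had been sorted as lineage-negative and CD11c-positive. Of 6 measured B cell markers, 2 were higher in brain DCs, Ms4a1 (1.00) and Vpreb3 (0.44), while Cd79a (-0.14) and Cd79b (-0.78) were not called. The count of 2 was 1 without brain DC replicate 2, without replicate 2 or 3 of the monocytes and with the replicate block. Cd79b read -2.07 and -0.47 on the brain DC arrays, against -0.49, -0.59 and -0.37 on the monocyte arrays, and 1 B cell marker was called lower without brain DC replicate 2. Among the natural killer cell markers, Klrd1 (6.29), Gzma (2.75) and Klre1 (1.58) were higher, while Ncr1, Prf1 and Eomes were not called. Klre1 read 1.97 and 0.24 on the brain DC arrays, against -0.41, -0.49 and -0.52 on the monocyte arrays. The part of all these genes in the Rgs1 result was not tested.

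The genes whose pattern over the 5 arrays lay closest to that of Rgs1, by Euclidean distance after each gene was centred on its own mean, were Il1b, which encodes the inflammatory cytokine interleukin 1 beta, at a distance of 1.03, the G protein-coupled receptor gene Gpr171 at 1.19 and Xist at 1.34. Il1b read 3.62 and 3.50 in brain DCs, against -2.07, -2.72 and -2.68 in monocytes. With 5 arrays in 2 groups, such a ranking mainly finds genes with a group difference of the same size.

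Rgs2, an R4 protein that acts preferentially on Gq, passed the test by the gene mean, and its 4 probe sets disagreed. The gene mean was 0.07 and 0.17 on the brain DC arrays, against -0.18, -0.60 and -0.30 on the monocyte arrays. The groups did not overlap, and the difference was 0.48 ± 0.16 SE (limma adjusted p = 0.0491), or 1.40-fold. Most of that difference came from the probe set 1419247_at, which read 0.20 and 0.08 in brain DCs, against -1.12, -1.71 and -0.97 in monocytes, a difference of 1.40 ± 0.23 SE (limma adjusted p = 0.00338 over all probe sets). The probe set 1419248_at, which is annotated to the same accession, differed by 0.25 ± 0.15 SE and was not called, and 1447830_s_at differed by the same rounded amount, 0.25. The fourth, 1443250_at, was at 0.02 with overlapping groups. The gene-mean call was lost each time 1 of the 5 arrays was left out, with limma adjusted p between 0.0507 (without monocyte replicate 1) and 0.159 (without brain DC replicate 2), and with the replicate number as a block (adjusted p = 0.0763). The median of the 4 probe sets in place of their mean gave 0.36 (limma adjusted p = 0.139), so the call depends on how the probe sets are joined, while 1419247_at alone was called each time 1 array was left out.

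The promoter of Rgs2 is shown because Rgs2 and Rgs10 were the called genes with an entry in the RefSeq promoter table. Promoter windows run from 250 bases before to 50 bases after a start site, in build GRCm38.p6, and 6 of the 9 genes had at least 1. Each window was searched on both strands for the cAMP response element TGACGTCA and its shorter core TGACG, which the longer motif contains, for the AP-1 site TGANTCA, the PU.1 core GAGGAA, the NF-kappaB core (GGGA and CC with any 4 bases between), the interferon-response core (GAAA and GAAA with any 2 bases between) and the TATA box TATAAA. Capitals mark matches. The Rgs2 window lies on the minus strand at chr1:144004100-144004399.
Rgs2 promoter: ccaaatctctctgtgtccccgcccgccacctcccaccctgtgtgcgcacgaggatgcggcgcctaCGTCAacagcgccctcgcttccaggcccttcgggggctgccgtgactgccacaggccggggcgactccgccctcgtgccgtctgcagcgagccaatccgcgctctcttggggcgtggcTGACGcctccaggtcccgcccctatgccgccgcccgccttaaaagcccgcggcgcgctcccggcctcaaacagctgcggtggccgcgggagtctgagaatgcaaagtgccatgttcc
It held the core TGACG at 2 places, with first bases at -185 (on the opposite strand) and -67 from the start site, and no match to the other motifs. That core was found in 20.8% of the 32851 promoter windows searched, and the whole element in 1.79%. The windows searched did not cover every chromosome. A match is a description of the letters and does not show that a factor binds there.

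Rgs3, a larger R4 protein with several isoforms, was read by 4 probe sets. Its gene mean was -0.45 and -0.29 in brain DCs, against -0.61, -0.86 and -0.58 in monocytes, so the groups did not overlap. The difference of 0.31 ± 0.14 SE was not called (limma adjusted p = 0.134, 95% interval from -0.02 to 0.64). All 4 probe sets had a positive difference, between 0.13 and 0.59. The highest, 1449516_a_at, read -0.33 and -0.13 in brain DCs, against -0.54, -1.13 and -0.78 in monocytes, and came close to a call among the probe sets (limma adjusted p = 0.0659).

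Rgs16, an R4 protein induced in activated lymphocytes and myeloid cells, showed a small separation. Its gene mean was 0.13 and 0.05 in brain DCs, against -0.28, -0.30 and -0.17 in monocytes. The groups did not overlap and both were tight, and the difference of 0.34 ± 0.12 SE was not called (limma adjusted p = 0.0664, 95% interval from 0.06 to 0.63 before adjustment). Of its 3 probe sets, 1455265_a_at was called, at 0.28 and 0.27 in brain DCs, against -0.19, -0.37 and -0.18 in monocytes (0.52 ± 0.15 SE, limma adjusted p = 0.0356). That call was lost each time 1 array was left out. The other two, 1451452_a_at at 0.36 and 1426037_a_at at 0.15, were not called.

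Rgs18, an R4 protein best known from platelets and megakaryocytes, had no difference beyond its spread. Its gene mean was 0.65 and -0.20 in brain DCs, against 0.20, 0.17 and 0.65 in monocytes. The 2 brain DC arrays lay further apart than the 3 monocyte arrays, and the groups overlapped. The difference was -0.11 ± 0.27 SE (limma adjusted p = 0.773), with a 95% interval from -0.74 to 0.51 that leaves room for a moderate change in either direction. Both probe sets, 1420398_at and 1449856_at, showed the same split between the brain DC arrays, by 0.84 and 0.87. Of 7 measured platelet and megakaryocyte markers, 4 were higher in brain DCs and 0 lower (0 also at an unadjusted p under 0.05). They were Ppbp (4.77), Pf4 (2.90), Itga2b (1.01) and Gp9 (0.90). The marker list's median was 0.76 and 0.46 on the brain DC arrays, against -0.14, -0.28 and -0.33 on the monocyte arrays, and its relation to Rgs18 was not tested.

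**Figure D2:**
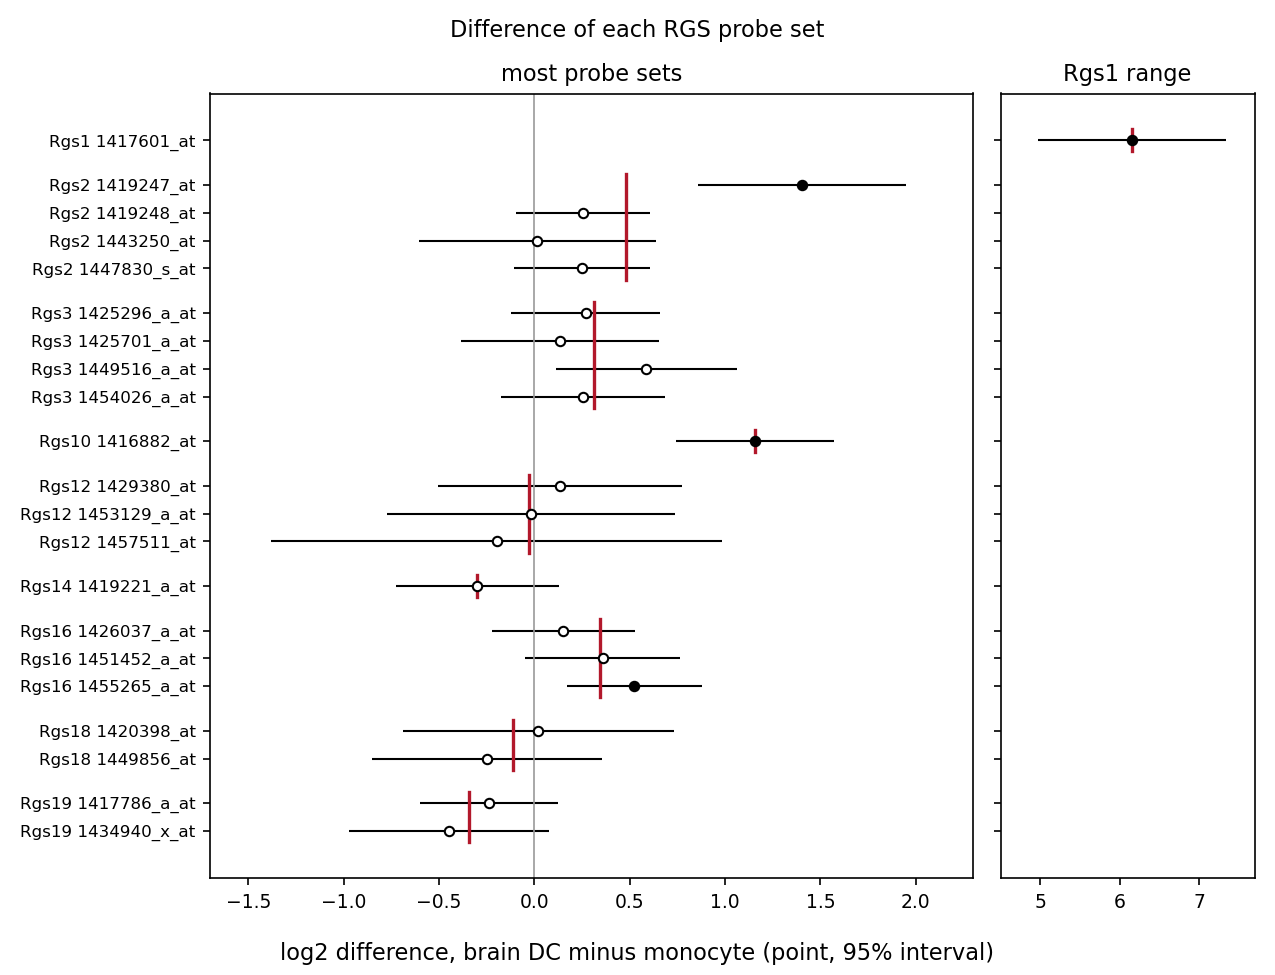
Log2 difference (brain DC minus monocyte) of each of the 21 probe sets with its 95% limma interval. Filled points have an adjusted p under 0.05 over all probe sets, red lines are the gene-mean differences, and the right panel holds Rgs1 on its own axis range. Filled points are 1417601_at of Rgs1, 1419247_at of Rgs2, 1416882_at of Rgs10 and 1455265_a_at of Rgs16.

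Among the R12 genes, Rgs10 rose and Rgs12 and Rgs14 were not called. Rgs10 encodes a small RGS protein that is abundant in microglia, where it restrains inflammatory activation. Its single probe set, 1416882_at, read 0.99 on both brain DC arrays, against -0.01, -0.42 and -0.05 on the monocyte arrays. The brain DC arrays were nearly equal and lay above all monocyte arrays, and monocyte replicate 2 was the lowest. The difference was 1.16 ± 0.16 SE (limma adjusted p = 0.00132), or 2.23-fold, with a 95% interval from 0.79 to 1.52. It remained called in all 13 alternatives, at differences between 1.03 and 1.27. Microglia markers moved with it: their median was 1.34 and 1.26 on the brain DC arrays, against -0.24, -0.27 and -0.18 on the monocyte arrays. The 8 higher ones ranged from Slc2a5 (0.53) to Gpr34 (3.64) and included P2ry12 (2.49) and Tmem119 (2.05), while Cx3cr1 was lower (-2.56). The part of these markers in the Rgs10 result was not tested. The Rgs10 window lies on the minus strand at chr7:128418123-128418422.
Rgs10 promoter: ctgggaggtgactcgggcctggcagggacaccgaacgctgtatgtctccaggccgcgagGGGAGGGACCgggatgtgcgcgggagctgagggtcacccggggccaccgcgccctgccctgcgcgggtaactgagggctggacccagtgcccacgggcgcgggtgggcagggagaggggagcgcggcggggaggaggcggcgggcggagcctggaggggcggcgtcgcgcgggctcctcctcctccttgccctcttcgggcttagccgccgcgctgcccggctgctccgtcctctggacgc
It held the NF-kappaB core, with its first base at -191 from the start site, and no match to the other motifs. That core was found in 20.7% of the promoter windows searched. It was also in windows of Rgs12, Rgs16 and Rgs19, and the core TGACG was also in a window of Rgs12. None of these genes was called by its gene mean. The AP-1 site was found in 7.81%, the PU.1 core in 28.3% and the interferon-response core in 3.44% of the windows searched. The TATA box was found in 13.6%, and none of these motifs was in the printed Rgs2 and Rgs10 windows.

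Rgs12 and Rgs14 each carry, besides the RGS domain, a GoLoco motif that holds inactive Gi subunits. Rgs12 read -0.47 and -0.68 in brain DCs, against -0.91, -0.36 and -0.36 in monocytes. The groups overlapped, and the difference was -0.03 ± 0.20 SE (limma adjusted p = 0.930, 95% interval from -0.49 to 0.43). Its 3 probe sets were noisy, and 1457511_at alone spread over 1.59 between the brain DC arrays and 1.35 among the monocyte arrays. Rgs14, by its single probe set 1419221_a_at, read 0.49 and 0.66 in brain DCs, against 1.06, 0.95 and 0.62 in monocytes. The brain DC arrays lay at the low end, with monocyte replicate 3 between them. The difference of -0.30 ± 0.16 SE was not called (limma adjusted p = 0.198, 95% interval from -0.68 to 0.08).

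Rgs19, the RZ protein also known as GAIP, acts on Gi and Gz subunits. Its gene mean was -0.35 and -0.07 in brain DCs, against 0.04, 0.01 and 0.36 in monocytes. It was the only one of the 9 genes whose brain DC arrays all lay below the monocyte arrays, as did 25.0% of all genes. The difference of -0.34 ± 0.16 SE was not called (limma adjusted p = 0.143, 95% interval from -0.72 to 0.03). Both probe sets pointed the same way, 1417786_a_at at -0.24 and 1434940_x_at at -0.45. The genes closest to its pattern were Cic at a Euclidean distance of 0.07, Zfp397 at 0.07 and the Gi subunit gene Gnai2 at 0.08, all with differences between -0.40 and -0.34.

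Of the 9 genes, 4 lie on mouse chromosome 1 (Rgs1, Rgs2, Rgs16 and Rgs18) and the other five on a chromosome each. In the RefSeq order of protein-coding genes on chromosome 1, Rgs2, Rgs13, Rgs1, Rgs21 and Rgs18 form an unbroken run of 5, and Rgs8 and Rgs16, and Rgs5 and Rgs4, form runs of 2. The run of 5 did not move as a block. Rgs1, in its middle, differed by 6.16, whereas Rgs2 at one end differed by 0.48, Rgs13 next to it by 0.29 (limma adjusted p = 0.131, not called) and Rgs18 at the other end by -0.11. Rgs21 had no value of its own here. Beside each other, Rgs8 was at -0.33 and Rgs16 at 0.34, and neither was called.

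The wider family showed small differences. Of 12 further measured genes on the family list, 2 were higher and 10 were not called, 0 of them lower at an unadjusted p under 0.05 either. Over all genes, 16.9% were called higher and 16.9% lower. That is the rate against which this count and those of the subfamilies and lists below are to be read. The 2 were Rgs11, an R7 gene, at 0.55 ± 0.17 SE (limma adjusted p = 0.0418), and Rgs5, an R4 gene that marks pericytes, at 0.39 ± 0.12 SE (limma adjusted p = 0.0377), with probe sets between -0.11 and 1.52. The count of 2 became 0 without brain DC replicate 1, without each of the 3 monocyte arrays and with arrays centred on their medians, and 1 without brain DC replicate 2. Of 8 measured pericyte and endothelial markers, 5 were higher in brain DCs. That count was 2 when brain DC replicate 1, or replicate 1 or 3 of the monocytes, was left out. The 5 were Cldn5 (2.56), Tek (0.73), Kcnj8 (0.72), Pecam1 (0.59) and Abcc9 (0.44), while Pdgfrb (0.18), Cspg4 (0.26) and Cdh5 (0.25) were not called. The list mixes markers of both cell types, and its relation to Rgs5 was not tested. The remaining genes on the family list were Rgs9 (0.29), Rgs17 (0.27), Rgs9bp (0.18), Rgs7 (0.17), Rgs4 (0.15), Rgs7bp (0.05), Rgs20 (0.03), Rgs6 (-0.09), and Rgs13 and Rgs8 as above. Rgs9bp and Rgs7bp encode binding partners of RGS proteins and are left out of the subfamily counts. By subfamily, 3 of 9 measured R4 genes, 1 of 4 R7 genes, 1 of 3 R12 genes and 0 of 3 RZ genes were higher (0 RZ genes also at an unadjusted p under 0.05), and 0 of all 19 were lower.

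Proteins that carry an RGS-like domain with other functions were lower or not called. Of 9 measured, 0 were higher (0 also at an unadjusted p under 0.05) and 6 were lower in brain DCs, with a median of -0.73. Arhgef1, an exchange factor that the G13 subunit activates, was lower by limma (-1.30 ± 0.13 SE, adjusted p = 2.91e-04). Also lower were the sorting nexin genes Snx14 (-1.18), Snx25 (-1.12) and Snx13 (-0.73), the kinase anchor gene Akap10 (-1.09) and the exchange factor gene Arhgef11 (-0.61). Arhgef12 (0.18), Axin1 (0.22) and Axin2 (-0.02) were not called.

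The genes of G alpha subunits, listed for all classes and not only those on which RGS proteins act, were mostly not called. Among 15 genes there were 3 higher, 1 lower and 11 without a call, with a median of 0.16. Gna13, of the G12 class, was higher (0.89 ± 0.14 SE, probe sets from -0.26 to 2.70), as were Gna15, a Gq-class subunit of blood cells (0.89 ± 0.20 SE), and Gnaz (0.41 ± 0.13 SE). Gnai3 was lower (-0.81 ± 0.16 SE), while the other Gi genes, Gnai2 at -0.40 and Gnai1 at 0.24, and the Gq gene Gnaq at 0.10 were not called. Of 16 measured beta and gamma subunits, 6 were higher and 0 lower (0 also at an unadjusted p under 0.05). Gngt2 (1.38 ± 0.18 SE), Gnb4 (1.10 ± 0.12 SE), Gng10 (0.84 ± 0.17 SE) and Gng2 (0.64 ± 0.14 SE) had the largest increases. The probe sets of Gng2 ran from -1.44 to 2.09 and those of Gnb4 from -0.12 to 2.07.

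**Figure D3:**
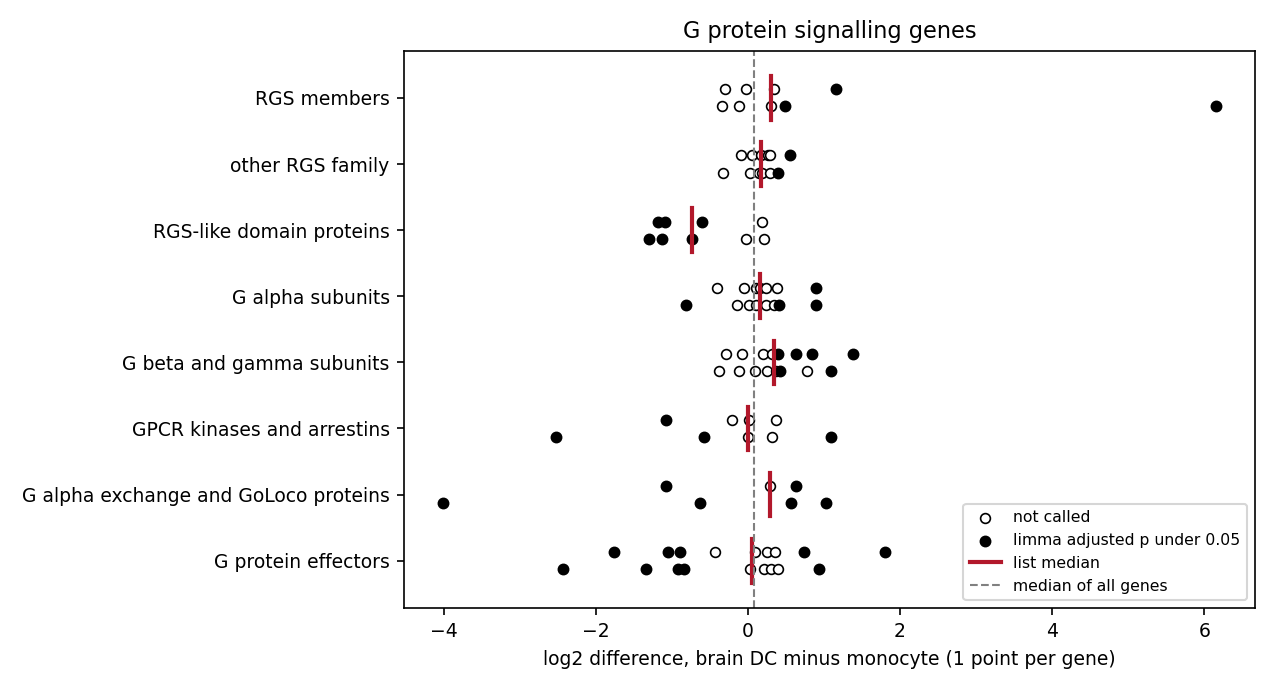
Log2 difference (brain DC minus monocyte) of each measured gene in 8 lists of G protein signalling, with filled points for an adjusted limma p under 0.05, red lines for list medians and a dashed line for the median of all genes, 0.09. Rgs1 at 6.16 is the highest point and Gpsm2 at -4.01 the lowest, and the RGS-like domain list has its median at -0.73.

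Other proteins that limit or carry receptor signals moved in both directions. Of 9 measured receptor kinases and arrestins, 1 was higher and 3 were lower. The receptor kinase genes Grk5 (-2.53 ± 0.20 SE) and Grk6 (-1.08 ± 0.19 SE) and the arrestin gene Arrb1 (-0.57 ± 0.14 SE) were lower, and Arrb2 was higher (1.09 ± 0.13 SE). Of 7 exchange factors and GoLoco proteins, 3 were higher and 3 lower. Gpsm2, which binds Gi subunits and orients the mitotic spindle, fell by 4.01 (± 0.27 SE, limma adjusted p = 5.64e-05), Ccdc88a was at -1.08 and Ric8b at -0.62. Gpsm3 (1.03), Gpsm1 (0.63) and Ric8a (0.56) were higher, and none of these 3 was called without brain DC replicate 2. Of 18 effectors, 3 were higher and 7 lower. The lower ones included all 3 measured subunits of the phosphoinositide 3-kinase gamma complex, which G beta-gamma activates: Pik3r6 (-2.44 ± 0.15 SE), Pik3cg (-1.05 ± 0.16 SE) and Pik3r5 (-0.92 ± 0.15 SE). Plcb1 (-1.76, probe sets from -5.16 to -0.54) and Prex1 (-1.34) were lower too. The adenylyl cyclase genes split, with Adcy4 (1.80 ± 0.15 SE) and Adcy6 (0.74) higher and Adcy9 (-0.89) and Adcy7 (-0.84) lower, and Plcb4 was higher (0.94, probe sets from 0.10 to 3.57).

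**Figure D4:**
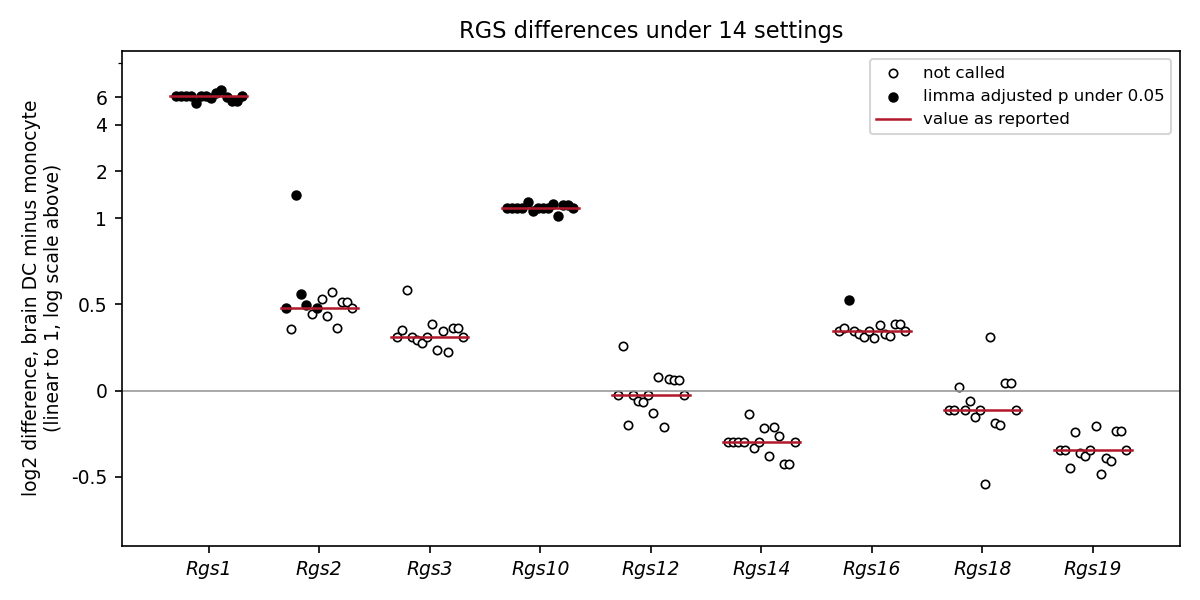
Log2 difference (brain DC minus monocyte) of each RGS gene in the reported fit (red line) and in all 14 settings, that is, the reported fit and 13 alternatives, 1 point each, filled where the adjusted limma p was under 0.05. The vertical axis is linear to 1 and logarithmic above. Rgs1 and Rgs10 are filled throughout, Rgs2 in 5 settings and Rgs16 in 1, and the points of Rgs12 and Rgs18 lie on both sides of 0.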

How the data were processed

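RNA from 5 sorted mouse samples was hybridised to Affymetrix arrays, 1 per sample, after total RNA extraction and biotin labelling, per the labels' protocols. The authors deposited log2 values from RMA (a background-corrected, normalised summary of the probes), per the submitters' processing notes. The values are centred on a baseline of each probe set. The log base is inferred from their range, and which arrays set the baseline is unknown. Array medians lay between -0.05 and 0.00. Centring removes levels, so neither detection above background nor a filter on dim probes could be had.

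The table held 45101 probe sets: 64 controls, 34945 with 1 symbol in the platform annotation, 932 with several and 9160 with none. Probe sets of a gene were averaged (18193 genes, 9010 with over 1 probe set). Groups were compared in R (version 4.3.3) by limma (version 3.58.1), without covariates (3 residual and 4.43 prior degrees of freedom), by gene mean and by probe set, adjusted over each whole table. Only the limma comparison was tested on simulated data. The number of arrays limits the precision.

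The 9 genes, the pathway and marker lists and the rule for named genes (all 9 genes with every probe set, all further RGS genes, up to 4 called genes per direction of each list, the 3 nearest patterns) were chosen with earlier results of these data known. Subfamilies, gene order, motifs and sex-linked genes were added later, and list genes named beyond the 4 were chosen after their values were seen.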

Additional observations from a re-analysis of the deposited data

How the results depend on the processing

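Each gene was refitted under 13 alternatives: 2 other ways of joining probe sets, no _x_at or _s_at probe sets, 2 normalisations, robust variances, each array left out, the replicate number as a block, and genes with the lowest 25% of ranges left out. Rgs1 (5.55 to 6.70) and Rgs10 (1.03 to 1.27) were called in all of them, and Rgs3, Rgs14 and Rgs19 kept their direction and were called in none. Rgs2 kept its direction (0.36 to 1.40) and lost its call in 9, and Rgs16 gained one by its most variable probe set (0.52, limma adjusted p = 0.0371). Rgs12 was positive with the median of probe sets (0.26) and with the replicate block (0.063), and ran from -0.21 to 0.077 with 1 array left out. Rgs18 was positive by its more variable probe set (0.020) and with the replicate block (0.041), and ran from -0.54 to 0.31 with 1 array left out. The cause was not tested. The count of RGS genes called higher was 2 to 4, and 2 each time 1 array was left out and with the replicate block, while 0 were lower throughout. The probe set count was 3 or 4. Replicate numbers 1 and 2 occur in both groups, but same-numbered arrays deviated together only weakly (r over genes of 0.05 and 0.09), so the block pairs numbers only. That fit has 1 residual degree of freedom and drops monocyte replicate 3, which has no partner. Refits of the lists, added after seeing the data, moved 13 of 38 list counts by over 1.5 times in at least 1 alternative.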
